A study of Danio rerio with 12 samples.

Results

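Retinoids are vitamin A and its relatives. Retinol leaves the liver in plasma bound to retinol-binding protein 4, enters cells through membrane receptors, is held inside them by small cytosolic binding proteins, and is oxidised by way of retinal to retinoic acid, the ligand of nuclear receptors. The liver is the main store of vitamin A in vertebrates, held as retinyl esters largely in stellate cells, while hepatocytes make the plasma carrier. Here 7 genes along this route are described in zebrafish liver, chosen by symbol from the 32520 genes of the deposited table and each matched by 1 identifier. They are rbp4 (ENSDARG00000101199), rbp2a (ENSDARG00000070038), crabp1a (ENSDARG00000045926), stra6 (ENSDARG00000051874), stra6l (ENSDARG00000062467), aldh1a2 (ENSDARG00000053493) and cyp26a1 (ENSDARG00000033999). The set was put together with earlier results of these libraries known, so its values are a description, and crabp1a in particular had been singled out for its level in exposed against control males.

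Livers of adult wild-type TU zebrafish, 4 months old, were profiled by RNA sequencing after 28 days in water with bisphenol AF (BPAF), a fluorinated relative of bisphenol A, or in control water with the solvent dimethyl sulfoxide (DMSO). There were 4 groups of 3 libraries, namely control males and control females with 0.0001% DMSO, and exposed males and exposed females with BPAF at 10 µg/L. The labels give no DMSO level for the exposed fish, so solvent and BPAF cannot be told apart. Nor do they say if a library is 1 fish or a pool, and the p-values therefore speak of the scatter among these libraries, part or all of which may be technical. Levels are given as TPM, transcript abundances which are relative to transcript length and to the library total and keep no sequencing depth, so the depth behind each value is unknown and small values cannot be given a counting error.

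All 12 hepatocyte markers examined were at 1 TPM or more in every library, with sums of 222000 to 292000 TPM in males and 71000 to 99000 TPM in females. Between 9108 and 12313 genes reached 1 TPM in the male libraries and between 7007 and 9217 in the female ones. Vitellogenins, the yolk proteins made by female liver, took 19.5% to 25.7% of all TPM in females and 0.00115% to 0.0108% in males, so the remaining genes share a smaller total in females. Among all tested genes the median difference of females from males was -0.52 on the log2(TPM + 1) scale in controls and -0.78 in exposed fish. Sex differences below are set against this median. With vitellogenins left out and the libraries rescaled, the median was still -0.28 in controls and -0.55 in exposed fish.

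The 7 genes covered a wide range of levels, and rbp4 and rbp2a held nearly all of the set's transcripts. In every library rbp4 ranked between 23 and 112 and rbp2a between 50 and 163 among the 32520 genes. The receptor stra6l was a moderate transcript, between rank 1594 and rank 3185. The genes aldh1a2, crabp1a, stra6 and cyp26a1 were low, and each was listed at 0 in at least 1 library. Together the 7 genes made up 0.444% to 0.772% of all TPM in males and 0.256% to 0.482% in females.

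**Figure D1:**
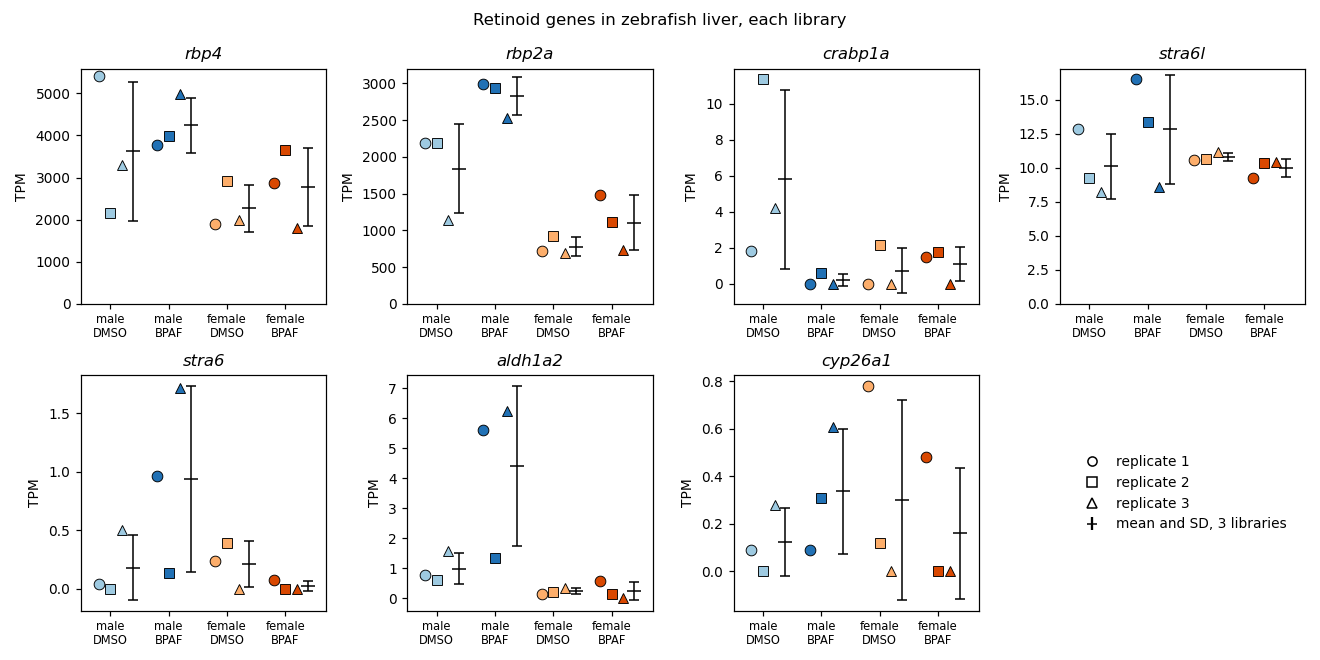
TPM of the 7 retinoid genes in each of the 12 livers' libraries, with 1 panel per gene on its own linear axis; symbols mark replicates 1 to 3 of each group and the bars the mean and SD. Levels of rbp2a lay between 1138.37 and 2997.22 TPM in males and between 691.17 and 1475.81 TPM in females, and the aldh1a2 levels over 1 TPM were all in males.

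Tests were run on the 11389 genes with 1 TPM or more in 3 or more libraries. Of the 7 genes, 5 were tested and 2, stra6 and cyp26a1, were not. The low gene aldh1a2 passed narrowly, through the 3 exposed males and 1 control male. The low gene crabp1a reached 1 TPM in the 3 control males and in 3 of the 6 female libraries. All differences below are fitted with limma on log2(TPM + 1), which understates the change of low genes. A gene is called where its p, adjusted by Benjamini-Hochberg over all tested genes, is under 0.05. Where groups are said not to overlap, the share of all genes that do so was not counted, and the statement is a description.

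The plasma carrier rbp4 was the most abundant of the 7 genes in all libraries but the second control male, where rbp2a was slightly higher. In control males its TPM were 5403.83, 2156.38 and 3306.03, and in exposed males 3763.95, 3980.7 and 4983.98. In control females they were 1901.06, 2908.35 and 1987.45, and in exposed females 2881.44, 3649.46 and 1802.55. The ranges of control and exposed fish overlapped in both sexes, and the control males included both the lowest male value and the highest value of all 12 libraries.

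No BPAF difference in rbp4 was called in either sex. The fitted difference of exposed from control was 0.32 ± 0.34 (SE) in males, with a 95% interval from -0.42 to 1.05, and the limma adjusted p was 0.835. The male difference turned to -0.11 under trimmed-mean scaling. In females it was 0.26 ± 0.34, with an interval from -0.47 to 1.0 and a limma adjusted p of 1.0. The mean of rbp4 in females and males was 2270 ± 558 (SD, n = 3) against 3620 ± 1650 TPM in controls and 2780 ± 928 against 4240 ± 651 TPM in exposed fish. These sex differences, -0.60 ± 0.34 and -0.66 ± 0.34, were not called with limma (adjusted p = 0.196 and 0.118), and under trimmed-mean scaling they turned to 0.05 and 0.48. Relative to the median of all genes they were -0.08 and 0.12. Only quantile normalization gave a call, in exposed fish (-1.21, limma adjusted p = 0.0347).

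In mammals the partner of the plasma carrier is transthyretin, which keeps the small carrier from being filtered out by the kidney. The zebrafish gene is ttr, and binding of its product to that of rbp4 was not tested. The level of ttr was lower in females in both comparisons, by a log2 difference of -1.73 in controls and -1.74 in exposed fish (limma adjusted p = 0.0162 and 0.00874). A ratio within a library does not depend on how the library is scaled. The ratio of rbp4 to ttr TPM was 11.8, 8.0 and 13.1 in control males and 6.7, 14.7 and 26.8 in exposed males. It was 25.3, 20.3 and 25.6 in control females and 27.0, 34.8 and 27.2 in exposed females. Control males lay below all 6 female libraries, whereas the third exposed male reached the female range. The ratio was picked after its parts had been seen and is given without a test.

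The cytosolic retinol-binding gene rbp2a came next in abundance. Its mammalian relative RBP2 is best known from the absorptive cells of the intestine, where it passes retinol to the esterifying enzyme. In control males its TPM were 2194.93, 2184.18 and 1138.37, and in exposed males 2997.22, 2942.91 and 2527.07. In control females they were 717.67, 926.67 and 691.17, and in exposed females 1475.81, 1110.85 and 729.08. All exposed males were above all control males, and all control males above all control females. The exposed females overlapped the control females, and their highest library also exceeded the lowest control male.

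By group means rbp2a was ordered as exposed males at 2820 ± 257 TPM, control males at 1840 ± 607, exposed females at 1110 ± 373 and control females at 779 ± 129 (SD, n = 3 each). Neither step from control to exposed passed the test across genes. In males the log2 difference was 0.68 ± 0.30, or 0.44 above the median of all genes, with an interval from 0.02 to 1.33, an unadjusted limma p of 0.0444 and an adjusted p of 0.772. In females it was 0.46 ± 0.30, with an interval from -0.20 to 1.12 and a limma adjusted p of 1.0.

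Females had less rbp2a than males, and this was called in both comparisons with limma. The log2 difference was -1.19 ± 0.30 in controls (interval -1.85 to -0.53, adjusted p = 0.0186) and -1.41 ± 0.30 in exposed fish (interval -2.06 to -0.75, adjusted p = 0.0054). Relative to the median of all genes the differences were -0.67 and -0.63. In bulk tissue, fewer cells of a type and less RNA per cell cannot be told apart, and this holds for every sex difference given here. The call in controls was lost under each scaling that lessens the weight of the vitellogenins, with log2 differences of -0.53 (trimmed mean, limma adjusted p = 0.206), -1.04 (quantile, 0.105) and -0.83 (vitellogenins left out, 0.0978). It was also lost without control male 1, control male 2, control female 1 or control female 3, with limma adjusted p between 0.0558 and 0.0702. The call in exposed fish was lost under trimmed-mean scaling, at -0.27 (limma adjusted p = 0.551), and remained in the other 22 alternatives.

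The paralog rbp2b is similar in sequence, and the sources used here do not say how reads shared by the pair were divided, so the level of each copy carries that uncertainty. Its TPM were 1106.72, 1109.1 and 611.74 in control males, 768.26, 1099.39 and 720.27 in exposed males, 128.17, 262.43 and 156.43 in control females, and 204.14, 274.71 and 215.14 in exposed females. Males and females did not overlap. The ratio of rbp2a to rbp2b was 1.98, 1.97 and 1.86 in control males and 3.9, 2.68 and 3.51 in exposed males. It was 5.6, 3.53 and 4.42 in control females and 7.23, 4.04 and 3.39 in exposed females. The control males lay below every other library and close together, at 1.94 ± 0.067 (SD, n = 3), and the exposed males at 3.36 ± 0.625 overlapped the females. This ratio was also chosen after its values were seen, and it has no test.

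**Figure D2:**
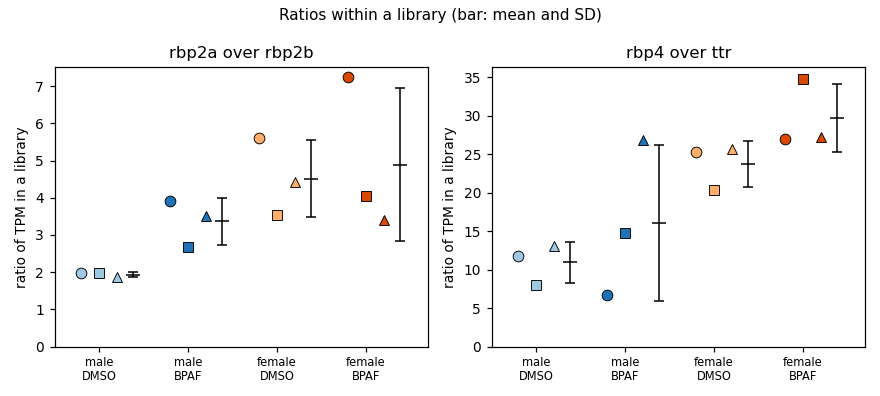
Ratio of rbp2a to rbp2b TPM (left) and of rbp4 to ttr TPM (right) within each library on linear axes, by group, with symbols for replicates 1 to 3 and bars for the mean and SD. The control males sat at 1.86 to 1.98 on the left and 8.0 to 13.1 on the right, below all 6 female libraries in both panels.

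The gene crabp1a encodes a cytosolic protein that binds retinoic acid. Its TPM were 1.84, 11.36 and 4.19 in control males and 0, 0.58 and 0 in exposed males. They were 0, 2.16 and 0 in control females and 1.48, 1.76 and 0 in exposed females. Every control male exceeded every exposed male, the second control male stood far above the rest, and 5 of the 12 libraries were listed at 0. The gene had been picked for this contrast, so the log2 differences that involve control males are a description, at -2.28 for exposed against control males, -1.95 for control females against control males and 2.65 for the female minus the male response. In comparisons without control males no difference was called with limma, at 0.37 ± 0.59 for BPAF in females (interval -0.92 to 1.67, adjusted p = 1.0) and 0.71 ± 0.59 for exposed females against exposed males (interval -0.59 to 2.0, adjusted p = 0.324). Its paralog crabp1b reached at most 0.12 TPM in a control male and was listed at 0 in every female library.

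Of the membrane receptors, stra6l was expressed steadily and stra6 was near 0. The product of stra6l, also known as RBPR2, takes up retinol from the plasma carrier, as does that of stra6, which in mammals is prominent in the eye. The TPM of stra6l were 12.81, 9.26 and 8.23 in control males and 16.54, 13.33 and 8.57 in exposed males. They were 10.55, 10.65 and 11.12 in control females and 9.23, 10.32 and 10.45 in exposed females. The groups overlapped in every comparison except control against exposed females, where the 3 control values were just above the 3 exposed ones.

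The spread of stra6l among females was small, with an SD of 0.304 TPM around 10.8 in controls and 0.67 around 10.0 in exposed fish (n = 3 each). The BPAF difference in males was 0.29 ± 0.27, with an interval from -0.29 to 0.88 (limma adjusted p = 0.823), and turned to -0.10 under trimmed-mean scaling. In females it was -0.10 ± 0.27, with an interval from -0.68 to 0.48 (limma adjusted p = 1.0). Between the sexes stra6l differed by 0.11 ± 0.27 in controls and -0.29 ± 0.27 in exposed fish (limma adjusted p = 0.787 and 0.373). Relative to the median of all genes the differences were 0.63 and 0.49. The sign for exposed fish depended on the scaling, with 0.75 under the trimmed mean, 0.71 under quantile normalization and 0.04 without vitellogenins, and of these alternatives only quantile normalization in controls gave a call (0.84, limma adjusted p = 0.048).

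For stra6 the TPM were 0.04, 0 and 0.5 in control males and 0.96, 0.13 and 1.72 in exposed males. They were 0.24, 0.39 and 0 in control females and 0.07, 0 and 0 in exposed females. The third exposed male was the sole library above 1 TPM, and exposed and control groups overlapped in both sexes.

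The synthesis gene aldh1a2 encodes a retinal dehydrogenase that makes retinoic acid. Its TPM were 0.78, 0.59 and 1.57 in control males and 5.61, 1.33 and 6.25 in exposed males. They were 0.14, 0.2 and 0.34 in control females and 0.57, 0.13 and 0 in exposed females. The first and the third exposed males stood apart from all other libraries, and the second exposed male lay within the control male range. Each exposed male was above the control male of the same number. Every male library was above every female library, but narrowly, with the lowest male at 0.59 and the highest female at 0.57 TPM.

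The exposed males averaged 4.40 ± 2.68 TPM of aldh1a2 against 0.98 ± 0.52 TPM in control males (SD, n = 3 each). The log2 difference of 1.31 ± 0.39 was the largest positive one of the 5 tested genes for BPAF against DMSO, 1.08 above the median of all genes, with an interval from 0.46 to 2.16. It had an unadjusted limma p of 0.00569 but an adjusted p of 0.665 and was not called. Over the 22 alternatives in which the gene could be tested it lay between 0.61 and 1.89, with limma adjusted p between 0.106 and 1.0. The gene was among the tested genes through the exposed males, the higher side here, so these values are a description. In females the means were 0.227 ± 0.103 TPM in controls and 0.233 ± 0.299 TPM in exposed fish, a log2 difference of -0.02 ± 0.39 (interval -0.87 to 0.83, limma adjusted p = 1.0). The female response minus the male response was -1.33 ± 0.55, with an unadjusted limma p of 0.033 and an adjusted p of 0.995. The exposed males enter this difference as well, so it is also a description.

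Exposed females had less aldh1a2 than exposed males, with a log2 difference of -1.99 ± 0.39 (interval -2.84 to -1.14), or -1.21 relative to the median of all genes. The limma adjusted p was 0.00394, but the gene was among the tested genes through the exposed males, the higher side of this comparison, so the call is a description. The fit without a filter kept the 25520 genes above 0 in at least 1 library. There the difference was the same and the limma adjusted p was 0.00986, which is also a description. In controls the difference was -0.66 ± 0.39 and was not called (limma adjusted p = 0.218).

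Other tissues attached to a dissected liver would bring transcripts of their own, and markers of the intestine are set beside aldh1a2 and stra6. Of 19 intestine markers 18 were in the table. The number of them at 1 TPM or more was 13, 5 and 17 in control males, 16, 14 and 18 in exposed males, 3, 14 and 4 in control females, and 11, 4 and 4 in exposed females. Their summed TPM were 1250, 1120 and 1870 in control males, 2010, 1500 and 7000 in exposed males, 246 to 553 in control females and 305 to 477 in exposed females. The marker apoa4b.1 made up most of these sums except in the third control male and the third exposed male. It was at 722.93 to 1419.93 TPM in males and 238.11 to 422.97 TPM in females. The third exposed male, highest for aldh1a2 and stra6, was also highest for these markers, with 4290.48 TPM of fabp6, an ileal bile acid binding protein, and 50.81 TPM of vil1, a brush border protein. The first exposed male, the next highest for aldh1a2 and stra6, had 0.85 TPM of fabp6 and 14.91 TPM of vil1. Within each male group, aldh1a2 and stra6 followed the order of the number of these markers. In control males, with 13, 5 and 17 markers, aldh1a2 was at 0.78, 0.59 and 1.57 TPM and stra6 at 0.04, 0 and 0.5. In exposed males, with 16, 14 and 18, aldh1a2 was at 5.61, 1.33 and 6.25 TPM and stra6 at 0.96, 0.13 and 1.72. Some values under 1 TPM, in comparisons that involve females, did not go together. Control female 2, with 14 markers, had 0.2 TPM of aldh1a2, below control female 3 at 0.34 TPM with 4 markers. Exposed male 2, with 14 markers, had 0.13 TPM of stra6, below control female 1 at 0.24 TPM with 3 markers. The part of intestinal RNA in the aldh1a2 and stra6 levels was not tested.

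The same marker list stands beside rbp2a, as its relative is intestinal in mammals. By groups, the exposed males were highest in rbp2a, at 2527.07 to 2997.22 TPM, and held the most intestine markers, and females were lower than males in both rbp2a means and marker sums. In females the sums were mostly apoa4b.1, which was also lower there than in males, so they say little about the other intestine markers. Within a group the values did not always go together. In the second control male 5 of the 18 intestine markers reached 1 TPM and fabp2 and vil1 were at 10.67 and 0.33 TPM, while rbp2a was at 2184.18 TPM. In the third control male, with 17 markers at 1 TPM or more, rbp2a was at 1138.37 TPM, the lowest male value. The part of intestinal RNA in the rbp2a levels was not tested, nor was that of the lower hepatocyte marker sums in females.

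Stellate cells, which store vitamin A and lie beside hepatocytes, were followed with 13 of 14 listed stellate cell and fibroblast markers found in the table. Their summed TPM were 80.5, 93.4 and 123 in control males, 571, 106 and 127 in exposed males, 20.9 to 69.9 in control females and 32.6 to 111 in exposed females. Of the 571 TPM in the first exposed male, 527.83 were from steap4. Between 7 and 9 of these markers reached 1 TPM in males and between 2 and 5 in females. The 5 mesothelium markers in the table summed to 4.84 to 8.30 TPM in males and 1.08 to 2.73 TPM in females, and their part and that of the stellate markers in the sex difference of aldh1a2 was not tested.

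**Figure D3:**
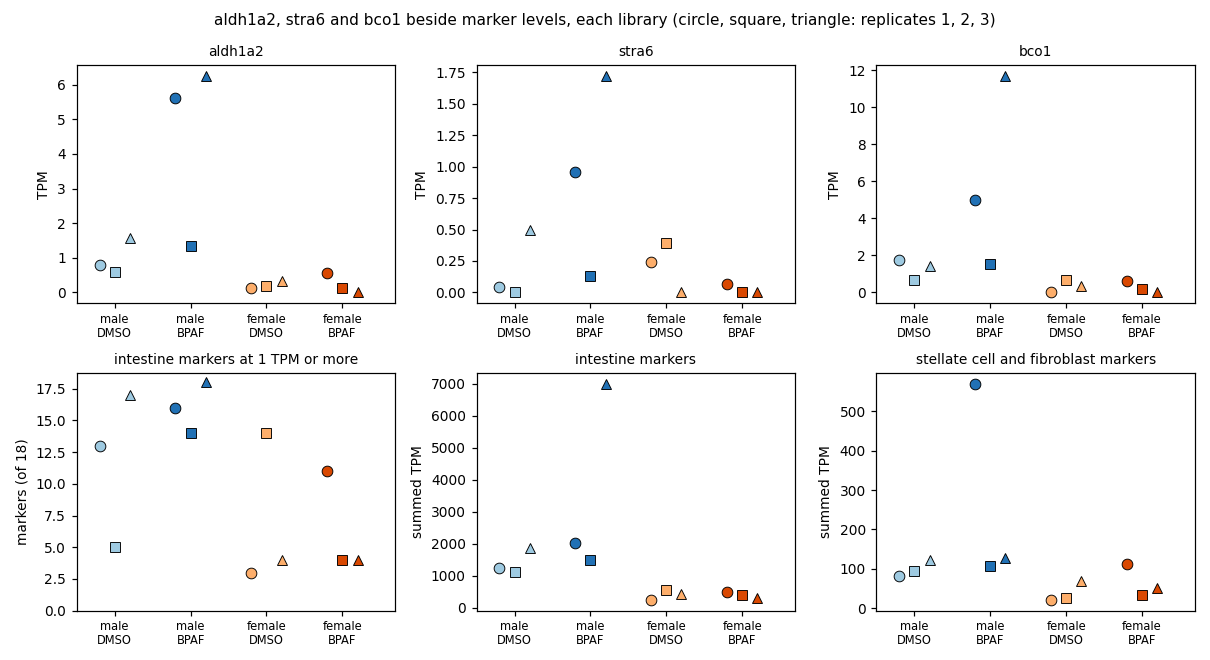
Levels in each library of aldh1a2, stra6 and bco1 (top, TPM), the number of the 18 intestine markers at 1 TPM or more, and the summed TPM of the intestine and of the stellate cell and fibroblast markers (bottom), on linear axes with symbols for replicates 1 to 3. The third exposed male was highest in the top 3 panels and in both intestine panels, whereas the first exposed male was highest for the stellate cell and fibroblast sum, at 571 TPM.

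The breakdown gene cyp26a1 encodes the cytochrome P450 that clears retinoic acid and is itself induced by it in many tissues. Its TPM were 0.09, 0 and 0.28 in control males and 0.09, 0.31 and 0.61 in exposed males. They were 0.78, 0.12 and 0 in control females and 0.48, 0 and 0 in exposed females. No library reached 1 TPM, 4 of the 12 were listed at 0, and the groups overlapped throughout. A difference in cyp26a1 was not tested in the main fit. Of its relatives, cyp26b1 was between 0.12 and 0.77 TPM and cyp26c1 no higher than 0.03 TPM.

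Counted over the set, BPAF gave 0 calls among the 5 tested genes in males, where 6 of all 11389 genes (0.0527%) were called with limma and 722 had an unadjusted p under 0.05. With the replicate number as a block over all fish or within sex, 1 or 2 of all genes were called. It gave 0 in females, where 0 of all genes (0.0%) were called and 157 had an unadjusted p under 0.05, none of them in the set. For the difference between the sexes' responses there were also 0 calls in the set and 0 over all genes (0.0%), with 368 genes at an unadjusted p under 0.05. In controls rbp2a and crabp1a were called lower in females, both as a description only. Beside them 2655 (23.3%) of all genes were called, 21.2% lower and 2.1% higher. In exposed fish rbp2a and aldh1a2 were called lower in females, again as a description only. Beside them 5424 (47.6%) of all genes were called, 45.7% lower and 1.91% higher. These backgrounds moved with the scaling, since under the trimmed mean 452 genes were higher and 564 lower in control females, and 402 higher and 227 lower in exposed females, beside 239 and 2416, and 218 and 5206, as fitted.

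**Figure D4:**
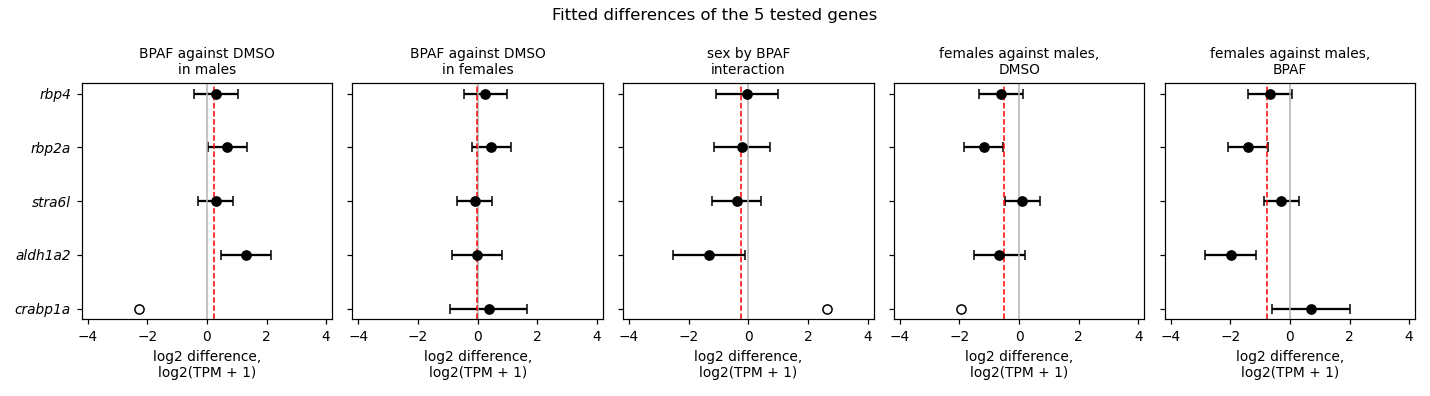
Fitted difference of log2(TPM + 1) for the 5 tested genes in the 5 comparisons, with 95% intervals as bars; the dashed line is the median over all tested genes, and open circles show crabp1a where control males enter, without an interval. Intervals of rbp2a lay wholly below 0 in both sex comparisons and that of aldh1a2 in exposed fish, whereas rbp4 and stra6l lay near or above the median in those comparisons.

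Around these 7 genes a list of 63 further retinoid genes was examined, of which 58 were in the table, 34 were tested and 3 were listed at 0 in every library. BPAF gave 0 calls among the 34 with limma in males, in females and in the difference between them. In males 3 of the 34 had an unadjusted limma p under 0.05, beside 722 of all 11389 tested genes. They were the carotenoid cleavage genes bco1 and bco1l and the binding protein gene rbp5. In females 0 of the 34 did, beside 157 of all genes. For the difference between the responses 1 did, bco1l, beside 368 of all genes. The median log2 difference of the 34 was 0.11 in males beside 0.24 for all genes, and 0.06 in females beside -0.01.

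Between the sexes 10 of the 34 genes (29.4%) were called lower in control females, beside 21.2% of all genes, and 0 higher, beside 2.1%. In exposed females 13 were called lower and 1 higher, which together are 41.2%, beside 47.6% of all genes. Of the 5 tested binding and plasma carrier proteins 4 were called lower in control females and 3 in exposed females, beside 21.2% and 45.7% of all genes. These counts include genes that passed the filter through males alone, so their calls are a description. They are rbp7b in controls, at most 0.89 TPM in any female library, and bco1 in exposed fish, at most 0.67 TPM. The binding protein gene rbp2b differed by -2.38 and -1.88 and its relative rbp5 by -1.85 and -1.97 (limma adjusted p = 0.0014 and 0.00247 for rbp2b, 0.00778 and 0.00381 for rbp5). Both lost the call in exposed fish under trimmed-mean scaling, at -0.75 and -0.87 (limma adjusted p = 0.235 and 0.194), and under quantile normalization, at -1.19 and -0.92 (0.0916 and 0.158). In controls rbp5 lost it under the same scalings, at -1.24 and -1.06 (limma adjusted p = 0.0699 and 0.103).

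Among the enzymes, 4 of 11 tested retinol dehydrogenases and retinal reductases were called lower in control females and 5 in exposed females, beside 21.2% and 45.7% of all genes. The retinol dehydrogenase rdh10a, whose product makes retinal for retinoic acid synthesis, averaged 9.20 ± 1.73 TPM in control males and 1.56 ± 0.508 in control females (SD, n = 3), a log2 difference of -2.0 (limma adjusted p = 0.00211). The difference in exposed fish was -1.81 (limma adjusted p = 0.00205), and this call was lost under trimmed-mean scaling and quantile normalization, both at -0.91 (0.1 and 0.0865). For rdh12l, another retinol dehydrogenase gene, the differences were -2.17 and -2.15 (limma adjusted p = 0.00188 and 0.00145). The acyltransferase dgat1a, which can esterify retinol as well as form triglyceride, averaged 11.7 ± 2.38 TPM in control males and 1.68 ± 0.53 in control females (SD, n = 3), and differed by -2.25 and -2.06 (limma adjusted p = 0.0011 and 0.00133). Both rdh12l and dgat1a kept their calls in all 23 alternatives. The 1 gene called higher in exposed females was the retinoic acid receptor raraa, at 0.65 (limma adjusted p = 0.0393), a call kept in 14 of 22 alternatives. Under trimmed-mean scaling 3 of the 34 were higher and 4 lower in control females, and 2 higher and 2 lower in exposed females.

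**Figure D5:**
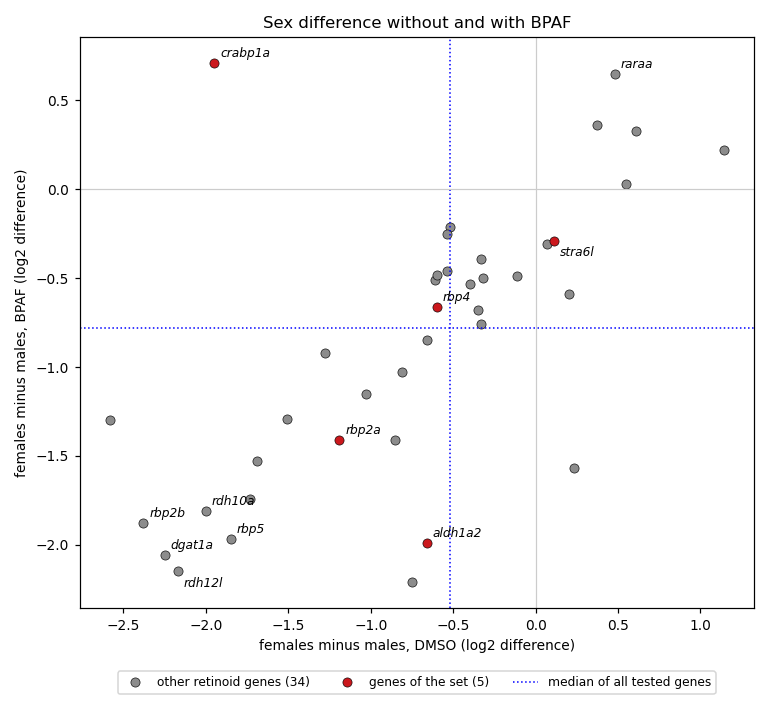
Difference of females from males in log2(TPM + 1) in controls (horizontal) and in exposed fish (vertical) for the 5 tested genes of the set (red) and 34 other retinoid genes (grey), with dotted lines at the medians of all tested genes, -0.52 and -0.78. The named binding protein and enzyme genes rbp2b, rbp5, dgat1a, rdh12l and rdh10a lay further below the medians than rbp2a on both axes. The sole point below 0 in controls and above 0 in exposed fish was crabp1a, whose difference in exposed fish was not called. It had been picked for its level in exposed against control males, so its place is a description.

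For each tested gene the 3 genes with the most similar profile over the 12 libraries were found, by the root mean square difference of log2(TPM + 1) after centring each gene on its mean. For rbp2a these were sub1a, cav2 and bpnt1, at 0.192, 0.197 and 0.20, beside a spread of 0.781 for rbp2a itself. For aldh1a2 they were slc23a1, zgc:165573 and slc13a1, at 0.234, 0.252 and 0.267 beside a spread of 0.915. For rbp4 they were vma21, smim15 and tomm20b, at 0.206 to 0.251 beside 0.515. For stra6l they were rnf6, DHX35 and antkmt, at 0.134 to 0.148 beside 0.252. The nearest to crabp1a, BX957326.4, soga3a and BX005380.2, were at 0.639 to 0.746 beside 1.11.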

How the data were processed

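Liver RNA of 12 libraries was sequenced from TRIzol extracts and Illumina TruSeq libraries, per the labels' protocols. The deposited table holds 1 value per gene and library, taken as TPM made by the authors. The unit was inferred, since the header names none: values have 2 decimals, and libraries sum to between 978504.61 and 992375.41. The submitters' processing notes list HISAT2 2.1.0, RSEM and Cufflinks with no role or order; no source used here gives the build or annotation. A further 4 columns hold the authors' group means and were not used, and 0 columns lacked a sample.

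The members and lists were chosen with earlier results of these data known. All 7 members are named. Of the other retinoid genes up to 5 called genes per direction with the smallest p are named. The genes bco1, bco1l, ttr, rbp7b, crabp1b, cyp26b1, cyp26c1 and single markers were named after their values were seen. In R 4.3.3, limma 3.58.1 with an intensity trend was fitted to log2(TPM + 1), with 1 mean per group over 12 libraries (8 residual degrees of freedom), after a filter of 1 TPM in at least 3 libraries. Adjusted p are Benjamini-Hochberg over 11389 genes, and the procedure was tested on simulated data. There a log2 change of 2 was recovered in 74% of changed genes for BPAF in males and 76% in females. For the difference between responses it was recovered in 44%. Only genes of higher level were changed, by 2 or 3, in libraries without pairing. Low genes and smaller differences were thus not covered. Alternatives were pseudocounts of 0.1 and 5, no filter or 5 TPM, 3 scalings, quality weights, replicate blocks, the compared groups alone, and leaving out each library. Libraries sharing a number deviated together in males (correlations 0.327, 0.347 and 0.376), each correlating best with its own number. Male samples may thus be paired, but this was not tested, and the labels give replicate numbers only. The main fit has no replicate block, so its SE, intervals and p for males leave any pairing out. The blocks are among the alternatives. In females the correlations were 0.226, 0.0526 and 0.104, and between the sexes -0.173 to 0.149. In these comparisons not every library correlated best with its own number.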

Additional observations from a re-analysis of the deposited data

How the results depend on the processing

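The limits are set by TPM, which keep no depth, and by 3 libraries per group. A further limit is the shift of scale between the sexes, part of which remained without vitellogenins. Of the single-gene values under the 23 alternatives, 752 kept direction and side of the threshold, 34 lost a call, 2 gained one and 21 changed sign. The cause of these changes was not tested.

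The 6 genes called for BPAF in males became 1 with a pseudocount of 0.1, 10 with 5, 73 without a filter, 1 with a 5 TPM filter, 1 under trimmed-mean scaling, 1 under quantile normalization, 3 without vitellogenins and 0 with the 2 male groups alone. With the replicate block there was 1, and with the block within sex 2; the block changed the call of no member. Leaving out 1 library gave 0 to 5 calls. In females the 0 calls became 3 without a filter. For the difference between responses the 0 calls became 1 with a pseudocount of 0.1, 1 with 5 and 12 without a filter, and 0 to 1 with 1 library left out.

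In control females against males the 2655 calls became 1639 without a filter, 1016 (trimmed mean), 930 (quantile), 1068 (no vitellogenins) and 909 to 3199 with 1 library left out. The 2 members called became 1 with a pseudocount of 0.1, without a filter, with the 5 TPM filter, under quantile normalization (stra6l, higher) and with quality weights, 0 under the trimmed mean and without vitellogenins, and 0 to 2 with 1 library left out. The 10 other retinoid genes became 5 without vitellogenins and 5 to 11 with 1 library left out. In exposed fish the 5424 calls became 3146 (5 TPM filter), 629 (trimmed mean), 664 (quantile), 2717 (no vitellogenins) and 2919 to 5412 with 1 library left out. The 2 members called became 1 with the 5 TPM filter and 1 under the trimmed mean, and stayed at 2 with any 1 library left out. The 14 other retinoid genes became 4 under the trimmed mean, 4 under quantile normalization and 10 to 17 with 1 library left out.

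Signs changed only for log2 differences that were not called. Under the trimmed mean these were rbp4 (-0.11 for BPAF in males, 0.42 for the difference between responses, 0.05 and 0.48 between the sexes), stra6l (-0.10, 0.04 and, in exposed fish, 0.75) and rbp2a (0.26 for the difference between responses). Between exposed sexes stra6l was at 0.71 under quantile normalization and 0.04 without vitellogenins. With 1 library left out, rbp4 ranged from -0.01 (without control male 2) to 0.66 for BPAF in males, and from -0.40 to 0.27 for the difference between responses (0.27, 0.07, 0.14 and 0.23 without control male 2, exposed male 3, control female 2 and exposed female 3). In that difference rbp2a ranged from -0.45 to 0.10, at 0.10 without control male 3 and 0.05 without exposed female 3. For BPAF in females aldh1a2 ranged from -0.20 to 0.12, at 0.05, 0.03 and 0.12 without control female 3, exposed female 2 and exposed female 3, and stra6l was at -0.02 between control sexes without control male 3.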

Other observations

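The carotenoid cleavage genes bco1 and bco1l, of the family that splits dietary carotenoids, were picked out after their values were seen. The TPM of bco1 were 1.77, 0.67 and 1.45 in control males and 5.0, 1.56 and 11.69 in exposed males, in the same order over the exposed males as aldh1a2 and stra6. They were 0.04, 0.67 and 0.36 in control females and 0.63, 0.20 and 0 in exposed females. For bco1l the control males lay between 2.97 and 4.87 TPM and the exposed males between 5.30 and 14.56, without overlap. How many of all genes show such a separation was not counted. Control females lay between 3.22 and 6.06 TPM and exposed females between 1.48 and 3.34. The BPAF difference of bco1l was 1.1 ± 0.36 (SE) in males and -0.71 ± 0.36 in females on the log2 scale, and the female minus the male response was -1.81 ± 0.50. None of these was called with limma (adjusted p = 0.692, 1.0 and 0.995). Among the exposed males bco1 and bco1l had the same order as the intestine markers given above. Among the control males they did not, as bco1l was highest, at 4.87 TPM, in the second, which had the fewest markers. The part of intestinal RNA in these levels was not tested.

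The retinoic acid hydroxylase cyp26b1 was between 0.42 and 0.77 TPM in control females and between 0.12 and 0.23 TPM in exposed females, without overlap. The gene was picked after its values were seen and lay under 1 TPM in every library. It did not pass the filter and was not tested, and the share of all genes without overlap was not counted. In males it was between 0.12 and 0.29 TPM in controls and between 0.23 and 0.43 TPM in exposed fish. The cellular retinol-binding gene rbp7b was listed at 0 in all 3 control females and at 0.11 to 21.11 TPM in control males.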
